A study of Mus musculus with 9 samples.

Results

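The genes that encode the subunits of the proteasome were examined in 9 mouse oral tumors, each hybridised to 1 Affymetrix expression array. A gene was taken as a member when its platform symbol was Psma, Psmb, Psmc, Psmd, Psme or Psmf followed by a number, and of its probe sets the one with the highest mean log2 signal was used. This rule found 43 genes among the 18193 genes that had a probe set with a single symbol. Of these 43 genes, 41 passed the filter on dim genes and were tested with 12167 genes in all. The other 2 were Psma8, a core subunit of the testis with a mean signal of 71.7, and Psmb11, a catalytic subunit of the thymic cortex with a mean signal of 57.5. The probe set of Psme2 is annotated to several genes and was not used here.

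There were 3 genotypes with 3 tumors each, all from mice labelled as 1 year old. The p53R172H/- tumors combined the missense allele p53R172H with a null allele, the p53R172H/+ tumors combined it with a wild-type allele, and both p53 alleles were lost in the p53-/- tumors. By the series title, activated Ras was part of the induction of every tumor. The labels name neither the Ras allele nor the promoter that drove the recombination in the mouth. The labelled genotype also holds a letter K, which was not expanded here. The p53R172H/+ tumors were not examined here for loss of their wild-type allele. Nothing in the labels says whether the tumors of a genotype came from different animals, so p-values refer to the spread among these tumors, which may be technical.

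The proteasome degrades proteins that have been tagged with ubiquitin. Its barrel-shaped 20S core is built from rings of alpha subunits, which gate the entry, and rings of beta subunits, some of which hold the cutting sites. The 19S cap, with an ATPase ring, a base and a lid, binds tagged proteins, removes the ubiquitin and threads the chain into the core. Interferon-gamma induces the catalytic subunits Psmb8, Psmb9 and Psmb10, which replace the constitutive Psmb5, Psmb6 and Psmb7 in newly built cores. The resulting immunoproteasome, often together with the PA28 cap, changes which peptides are made for presentation on class I molecules.

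The differences of the proteasome genes between the genotypes were small, and none passed the adjusted threshold. Between p53R172H/- and p53-/- tumors, 0 of the 41 members and 0% of all genes passed an adjusted p of 0.05 with limma, and the count of members was also 0 in each of the other 3 comparisons, with 0% of all genes. At an unadjusted p under 0.05, 1 member was higher and 1 was lower in the p53R172H/- than in the p53-/- tumors, against 6.44% and 9.16% of all genes. For p53R172H/+ against p53-/- tumors, 2 members were higher and 0 lower, against 4.75% and 5.6% of all genes. For p53R172H/- against p53R172H/+ tumors, 0 members were higher and 1 was lower, against 2% and 2.96% of all genes. For both mutant genotypes together against p53-/- tumors, 2 members were higher and 2 lower, against 6.84% and 9.09% of all genes. These shares of members, at most 4.88% in any direction, were near or below the background.

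The median log2 fold change of the 41 members was 0.01 for p53R172H/- against p53-/- tumors, beside -0.03 over all genes tested. For p53R172H/+ against p53-/- tumors the median was -0.01, beside -0.03 over all genes, and for both mutant genotypes together it was 0.02, beside -0.03. Both mutant comparisons use the same p53-/- tumors, so their values are not independent. The size of the differences was small as well: the median absolute log2 difference of members was 0.09 between p53R172H/- and p53-/- tumors, beside 0.15 over all genes, and 0.10 between p53R172H/+ and p53-/- tumors, beside 0.13. The 95% interval of the fold change lay within a factor of 1.5 in either direction for 40 of 41 members between p53R172H/- and p53-/- tumors, and for 39 of 41 between p53R172H/+ and p53-/- tumors. Of all 12167 genes, 8295 and 8820 had such narrow intervals in these comparisons. The members were brighter than most genes, with a median signal of 2386 beside 328.6 over all genes tested. Neither the absolute differences nor the intervals were compared with genes of like brightness. Because an interval that includes 0 does not show that levels were equal, these bounds are the statement the data allow.

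**Figure D1:**
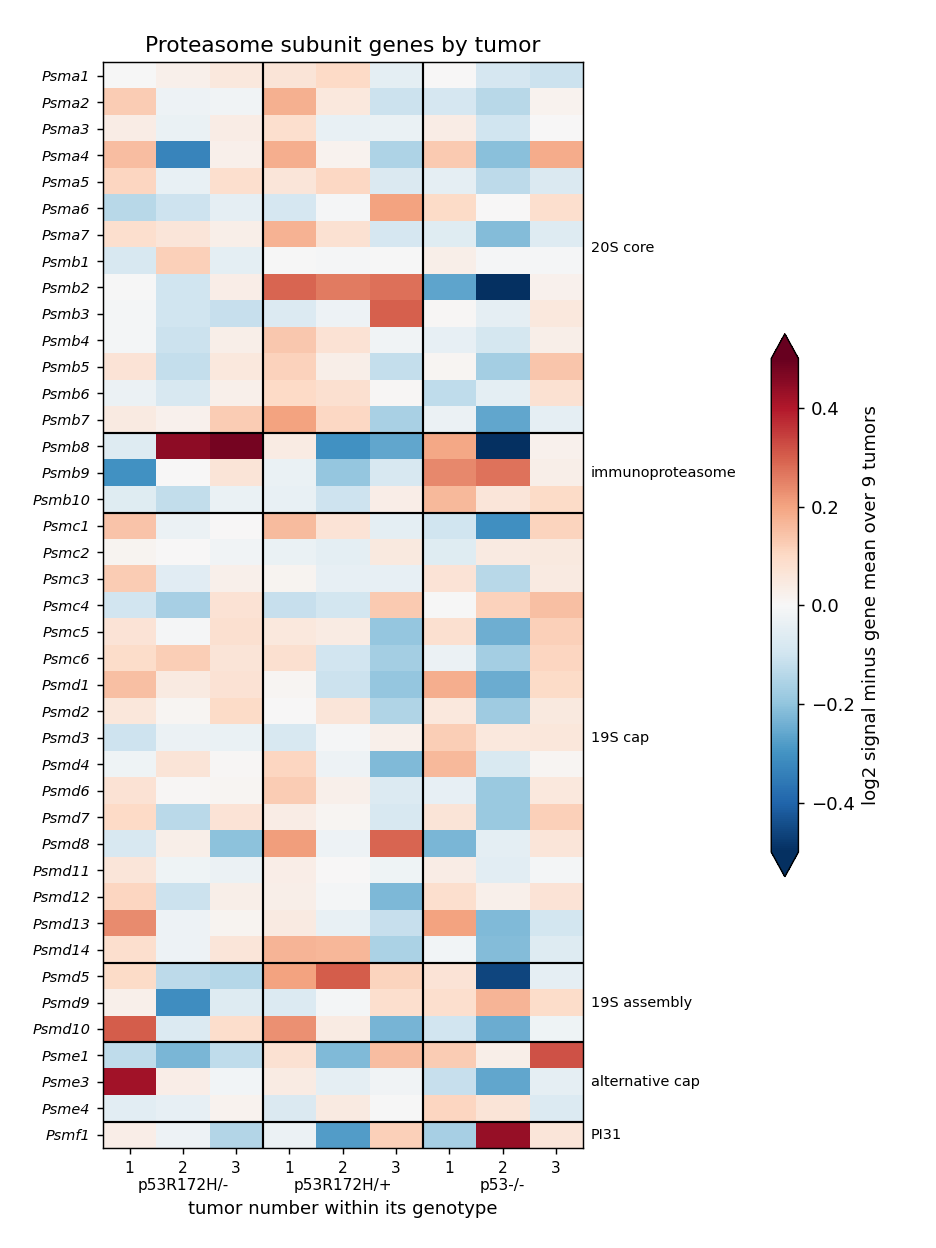
Heat map of the 41 tested proteasome genes (rows, by role) in 9 tumors (columns, by genotype), coloured by log2 signal minus the gene's own mean over the 9 tumors, with values beyond the colour scale drawn in its end colour. Psmb2 is high in the 3 p53R172H/+ tumors, Psmb8 is high in p53R172H/- tumors 2 and 3, and p53-/- tumor 2 is blue for most core and 19S genes.

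The arrays were alike in brightness, with median signals of 109 to 123. The tumors were epithelial by their 10 measured keratin, junction and Sfn marker genes, none of which was at the signal floor in any tumor, and their summed signal was 100590 to 110380 in p53R172H/- tumors, 94165 to 111680 in p53R172H/+ tumors and 93661 to 103070 in p53-/- tumors. Skeletal muscle differed far more: the summed signal of 13 muscle genes was 1366 to 40264 in p53R172H/- tumors, 1119 to 6520 in p53R172H/+ tumors and 3204 to 6207 in p53-/- tumors, and it was highest in p53R172H/- tumors 2 and 3, with 40264 and 18535. Of the 13 muscle genes, 6 were at the floor in p53R172H/+ tumor 2 and at most 2 in any other tumor. The summed signal of 15 leukocyte genes was 5178 to 9414 in p53R172H/- tumors, 7071 to 9975 in p53R172H/+ tumors and 6189 to 8218 in p53-/- tumors, and at most 1 of the 15 was at the floor in any tumor. That of 7 fibroblast genes was 13449 to 21078, 21741 to 25542 and 17421 to 28385 in the same order of genotypes. At an unadjusted p under 0.05, 5 of the 7 fibroblast genes were lower in p53R172H/- than in p53-/- tumors (median log2 fold change -0.67), against 9.16% of all genes, and 5 were lower in p53R172H/- than in p53R172H/+ tumors (median -0.67), against 2.96%. Their part in the values of the proteasome genes was not tested. In whole tumors, fewer cells of a type and less RNA per cell cannot be told apart.

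The immunoproteasome genes Psmb8 and Psmb9 lie beside the peptide transporter genes Tap1 and Tap2 on chromosome 17, in the order Psmb9, Tap1, Psmb8, Tap2. Psmb9 and Tap1 point away from each other, with 225 bases between their annotated starts, so that the 300-base windows around the starts share 275 bases. The stretch between the starts is printed because both genes averaged lower in mutant tumors, as described next, and the upstream bases of Psmb8 are printed because that gene, on the far side of Tap1, had another pattern. Both sequences are from RefSeq (GRCm38.p6, plus strand). In the stretch between Psmb9 and Tap1, chr17:34187331-34187555, the capitals mark the CCAAT motif. In the 250 bases before Psmb8, chr17:34197945-34198194, they mark a match to the interferon-gamma element motif TTCNNNGAA.
Psmb9-Tap1 between starts: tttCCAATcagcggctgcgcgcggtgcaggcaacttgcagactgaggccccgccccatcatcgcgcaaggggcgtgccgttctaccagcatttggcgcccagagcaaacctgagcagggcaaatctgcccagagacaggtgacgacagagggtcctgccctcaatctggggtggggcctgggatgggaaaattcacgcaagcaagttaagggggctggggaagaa
Psmb8 upstream: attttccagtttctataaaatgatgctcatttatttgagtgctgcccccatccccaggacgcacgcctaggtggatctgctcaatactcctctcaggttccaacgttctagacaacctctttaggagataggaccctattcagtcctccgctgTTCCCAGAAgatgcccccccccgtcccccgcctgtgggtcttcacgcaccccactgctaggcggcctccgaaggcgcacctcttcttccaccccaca

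Psmb9, the inducible counterpart of Psmb6, had signals of 140, 173 and 181 in p53R172H/- tumors and 169, 151 and 164 in p53R172H/+ tumors, against 204, 209 and 176 in p53-/- tumors. All p53R172H/+ tumors lay below all p53-/- tumors, and the p53R172H/- tumors overlapped them, since p53R172H/- tumor 3 at 181 was above p53-/- tumor 3 at 176. The log2 fold change was -0.26 ± 0.13 (SE) for p53R172H/- against p53-/- tumors (adjusted p = 0.358), -0.28 ± 0.13 for p53R172H/+ against p53-/- tumors (adjusted p = 0.493) and -0.27 ± 0.11 for both mutant genotypes together (adjusted p = 0.291, limma). Without p53R172H/- tumor 1, the lowest, the first of these Psmb9 values was -0.15.

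Psmb10, the inducible counterpart of Psmb7, had signals of 416, 398 and 424 in p53R172H/- tumors and 422, 403 and 443 in p53R172H/+ tumors, against 485, 452 and 464 in p53-/- tumors. The 6 mutant tumors were all below the 3 p53-/- tumors. Psmb10 averaged 412.5 ± 13.1 in p53R172H/- tumors and 423 ± 19.8 in p53R172H/+ tumors, against 467 ± 16.8 in p53-/- tumors (SD, n = 3 each). The log2 fold change was -0.18 ± 0.08 for p53R172H/- against p53-/- tumors (adjusted p = 0.341) and -0.16 ± 0.07 for both mutant genotypes together (adjusted p = 0.319, limma). Psmb10 and Psmd3, a lid subunit, were the 2 members lower in all mutant than in all p53-/- tumors, against 3.94% of all genes, and 0 members were higher in all, against 3.34%.

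Psmb8, the inducible counterpart of Psmb5, had signals of 177, 251 and 257 in p53R172H/- tumors and 190, 150 and 154 in p53R172H/+ tumors, against 211, 125 and 187 in p53-/- tumors. All 3 genotypes overlapped, and p53-/- tumor 2 was the lowest. The log2 fold change was 0.40 ± 0.22 for p53R172H/- against p53-/- tumors (adjusted p = 0.393), with a 95% interval from -0.09 to 0.89, and it was 0.46 ± 0.22 for p53R172H/- against p53R172H/+ tumors (adjusted p = 0.949, limma). A further Psmb8 probe set, below the filter with a mean signal of 63.1, gave -0.07 and 0.06 in these comparisons. Psmb8 and Psmb9 were dim, at percentiles 25.6 and 22.2 of signal over the genes tested. Without p53-/- tumor 2 the Psmb8 value for p53R172H/- against p53-/- tumors was 0.18. The highest Psmb8 signals were in p53R172H/- tumors 2 and 3, which also had the highest muscle signals. Without these 2 tumors the log2 fold change was 0.05 against p53-/- tumors and 0.11 against p53R172H/+ tumors, and it rested on the single remaining p53R172H/- tumor. Leaving out the 2 highest Psmb8 signals had to lower the value, so this says nothing about muscle content. The summed leukocyte signal in p53R172H/- tumors 1, 2 and 3 was 5178, 9142 and 9414. Within this genotype it was also highest in tumors 2 and 3. In the same tumor order it was 9975, 7071 and 8023 in p53R172H/+ tumors and 7871.5, 6189 and 8218 in p53-/- tumors. Of all tumors, p53R172H/+ tumor 1 had the highest leukocyte sum, with Psmb8 at 190. The tumor with the lowest Psmb8 signal, p53-/- tumor 2, had the lowest leukocyte sum of its genotype. The part of muscle or leukocyte content in the Psmb8 signal was not tested.

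**Figure D2:**
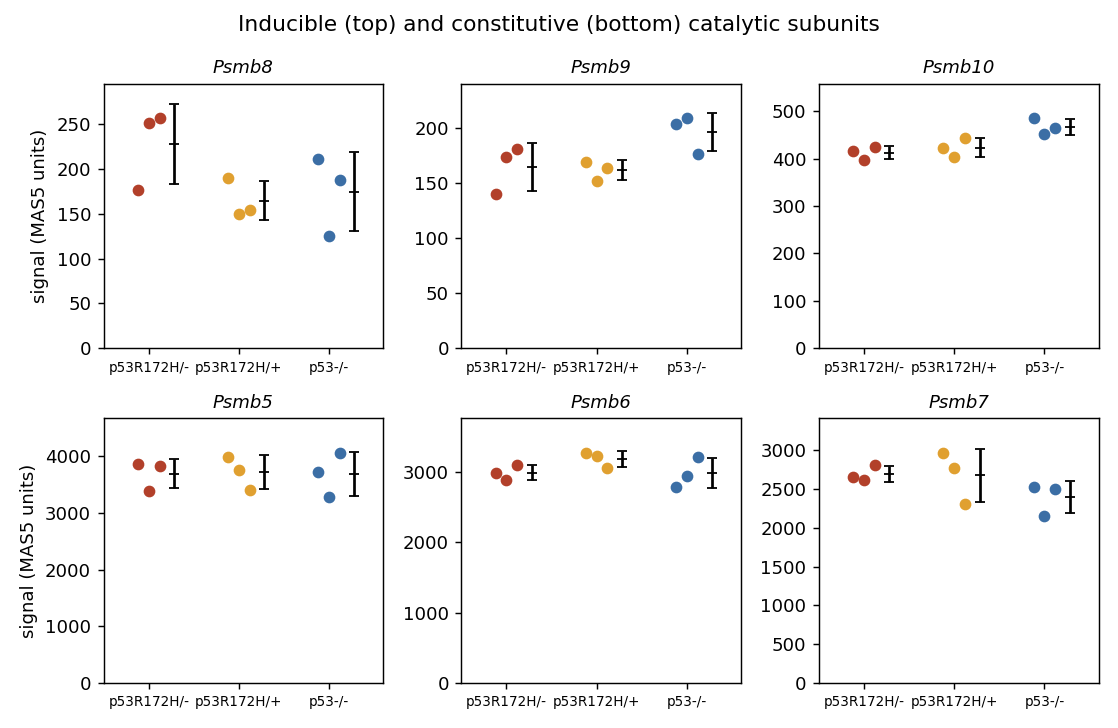
Signal (linear array units) of the inducible catalytic genes Psmb8, Psmb9 and Psmb10 (top) and the constitutive Psmb5, Psmb6 and Psmb7 (bottom) in p53R172H/-, p53R172H/+ and p53-/- tumors, with 1 point per tumor and bars for mean and SD (n = 3). Psmb10 is lower in all 6 mutant tumors than in any p53-/- tumor, Psmb8 is high in 2 p53R172H/- tumors, and Psmb5 and Psmb6 overlap between genotypes.

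Of the constitutive catalytic subunits, Psmb5 and Psmb6 overlapped between all genotypes. Psmb5, which carries the chymotrypsin-like site, had signals of 3870, 3396 and 3827 in p53R172H/- tumors and 3996, 3768 and 3403 in p53R172H/+ tumors, against 3723, 3279 and 4063 in p53-/- tumors. Psmb6, which carries the caspase-like site, had signals of 2992, 2885 and 3102 in p53R172H/- tumors and 3273, 3226 and 3064 in p53R172H/+ tumors, against 2792, 2945 and 3212 in p53-/- tumors. For both mutant genotypes against p53-/- tumors the log2 fold change was 0.01 ± 0.09 for Psmb5 (95% interval -0.18 to 0.21) and 0.05 ± 0.06 for Psmb6 (-0.09 to 0.20), which was 0.0055 without p53-/- tumor 1. Psmb7, which carries the trypsin-like site, had signals of 2663, 2620 and 2814 in p53R172H/- tumors and 2968, 2767 and 2302 in p53R172H/+ tumors, against 2524, 2155 and 2499 in p53-/- tumors. The p53R172H/- tumors were all above the p53-/- tumors, with a log2 fold change of 0.18 ± 0.11 (adjusted p = 0.433, limma), and the p53R172H/+ tumors overlapped them. For both mutant genotypes together the Psmb7 value was 0.17 ± 0.09 (adjusted p = 0.388, limma), and 0.09 without p53-/- tumor 2, its lowest tumor.

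Tap1, which encodes a subunit of the transporter that carries proteasome products into the endoplasmic reticulum, had signals of 237, 290 and 289 in p53R172H/- tumors and 255, 240 and 276 in p53R172H/+ tumors, against 358, 314 and 340 in p53-/- tumors. As with Psmb10, the 6 mutant tumors were all below the 3 p53-/- tumors, and the log2 fold change for both mutant genotypes together was -0.36 ± 0.10 (adjusted p = 0.219, limma). Tap2, the other transporter subunit, had signals of 171.7, 223 and 205 in p53R172H/- tumors and 165, 145 and 172.3 in p53R172H/+ tumors, against 198, 258 and 236 in p53-/- tumors. The p53R172H/+ tumors were all below the p53-/- tumors, with a log2 fold change of -0.52 (adjusted p = 0.359, limma), and the p53R172H/- tumors overlapped them.

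Correlations of log2 signals across the 9 tumors were computed for 6 pairs of genes that were picked after their values were seen. The p-values are two-sided, adjusted over the 6 pairs and taken over all tumors without regard to genotype, so they include any shared difference between genotypes and are no independent evidence. For Psmb9 and Tap1, Pearson's r was 0.845 (exact permutation p = 0.00498, adjusted p = 0.0221) and Spearman's rho was 0.867 (exact permutation p = 0.00451, adjusted p = 0.0271). Without the 2 tumors farthest from the median of Psmb9, r was 0.861, and with each genotype's mean removed it was 0.632. Psmb10 and Psme1 gave an r of 0.826 (exact permutation p = 0.00736, adjusted p = 0.0221) and a rho of 0.817 (exact permutation p = 0.0108, adjusted p = 0.0323), with an r of 0.829 without the 2 farthest tumors and 0.674 with genotype means removed. Psmb8 with Psmb9 gave an r of 0.0466 and a rho of 0.233 (exact permutation p = 0.901 and 0.552, adjusted p = 0.901 and 0.736), and r was 0.556 without the 2 farthest tumors and 0.374 with genotype means removed. Psmb8 with Tap2 gave an r of 0.112 and a rho of 0.117 (exact permutation p = 0.772 and 0.776, adjusted p = 0.901 and 0.776), with an r of 0.717 without the 2 farthest tumors and -0.03 with genotype means removed. The other pairs were Psmb9 with Psmb10, with an r of 0.658 and a rho of 0.65 (exact permutation p = 0.0551 and 0.0666, adjusted p = 0.110 and 0.133), and Psmb9 with Psme1, with an r of 0.377 and a rho of 0.2 (exact permutation p = 0.318 and 0.613, adjusted p = 0.477 and 0.736). Without the 2 farthest tumors r was 0.695 for Psmb9 with Psmb10 and 0.345 for Psmb9 with Psme1. With genotype means removed, r was 0.138 for Psmb9 with Psmb10 and -0.139 for Psmb9 with Psme1.

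Among the 7 alpha-ring genes, 5 averaged higher in p53R172H/- than in p53-/- tumors, with log2 fold changes from -0.16 (Psma6) to 0.17 (Psma7). In p53R172H/+ tumors 5 averaged higher than in p53-/- tumors, from -0.02 to 0.17. Of all genes tested, 43.79% and 43.95% averaged higher in these 2 comparisons. Psma7 had signals of 2536, 2492 and 2442 in p53R172H/- tumors and 2697, 2517 and 2258 in p53R172H/+ tumors, against 2294, 2056 and 2288 in p53-/- tumors. All p53R172H/- tumors were above all p53-/- tumors, while p53R172H/+ tumor 3 at 2258 lay within the p53-/- range. For both mutant genotypes together the log2 fold change of Psma7 was 0.17 ± 0.07 (unadjusted p = 0.045, adjusted p = 0.309, limma). Psma5 had signals of 2495, 2261 and 2454 in p53R172H/- tumors and 2416, 2491 and 2203 in p53R172H/+ tumors, against 2247, 2117 and 2201 in p53-/- tumors. It was also higher in every p53R172H/- than in every p53-/- tumor, with means of 2403 ± 125 and 2188 ± 65.9 (SD, n = 3 each) and a log2 fold change of 0.13 ± 0.08 (adjusted p = 0.411, limma). Psma6 had signals of 3389, 3474 and 3618 in p53R172H/- tumors and 3520, 3719 and 4296 in p53R172H/+ tumors, against 3996, 3738 and 3961 in p53-/- tumors. It was lower in every p53R172H/- than in every p53-/- tumor, with a log2 fold change of -0.16 ± 0.08 (adjusted p = 0.382, limma).

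Psmb2, a structural beta subunit without a cutting site, had the smallest p of the members in 3 of the 4 comparisons. Its signals were 1705, 1594 and 1746 in p53R172H/- tumors and 2089, 2044 and 2066 in p53R172H/+ tumors, against 1421, 1198 and 1734 in p53-/- tumors. The p53R172H/+ tumors lay close together and above the other 6 tumors, and the p53R172H/- tumors overlapped the p53-/- tumors through p53-/- tumor 3. Psmb2 averaged 1682 ± 78.5 in p53R172H/- tumors and 2066 ± 22.5 in p53R172H/+ tumors, against 1451 ± 269 in p53-/- tumors (SD, n = 3 each). The log2 fold change was 0.53 ± 0.12 for p53R172H/+ against p53-/- tumors, which is 1.44-fold (unadjusted p = 0.00185, adjusted p = 0.359). It was -0.30 ± 0.12 for p53R172H/- against p53R172H/+ tumors (unadjusted p = 0.0368, adjusted p = 0.949) and 0.38 ± 0.11 for both mutant genotypes against p53-/- tumors (unadjusted p = 0.00579, adjusted p = 0.219, limma). Without p53-/- tumor 2, its lowest tumor, the last value was 0.25. The array holds 1 measured probe set for Psmb2.

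**Figure D3:**
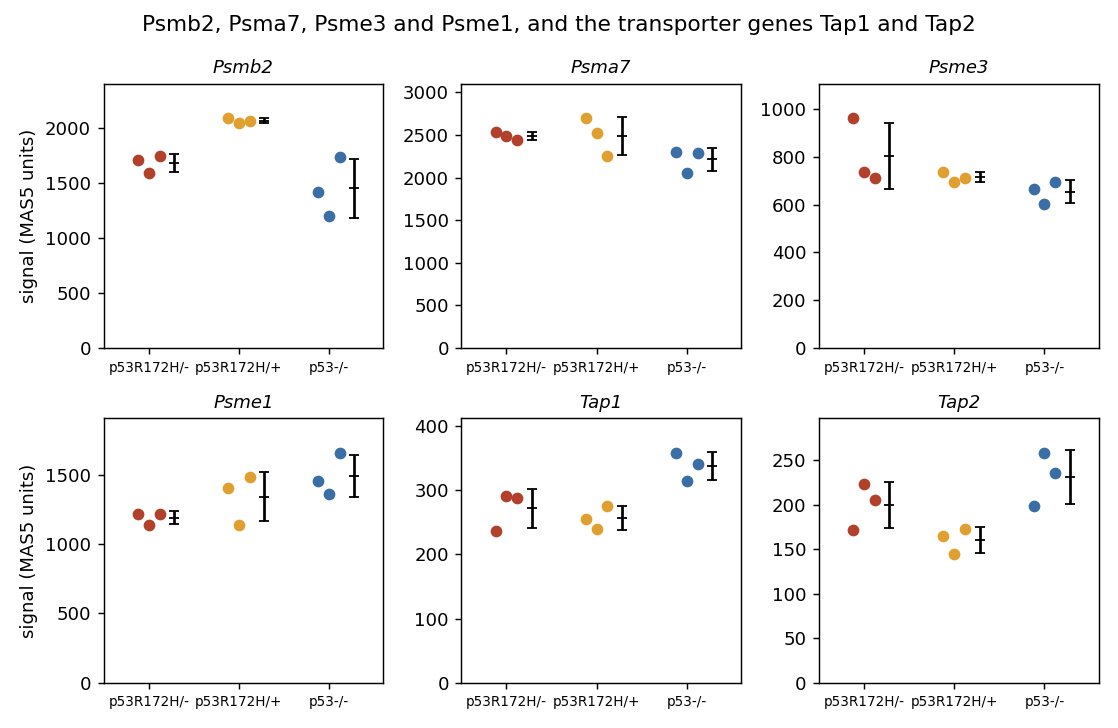
Signal (linear array units) of Psmb2, Psma7, Psme3 and Psme1, each with an unadjusted p under 0.05 in at least 1 comparison, and of the transporter genes Tap1 and Tap2, in p53R172H/-, p53R172H/+ and p53-/- tumors, with 1 point per tumor and bars for mean and SD (n = 3). Psmb2 is high in all p53R172H/+ tumors, and Tap1 is lower in all 6 mutant tumors than in any p53-/- tumor.

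The other structural beta subunits had smaller fold changes against p53-/- tumors on their brightest probe sets. For p53R172H/+ against p53-/- tumors the log2 fold change was -0.01 for Psmb1, 0.06 for Psmb3 and 0.10 for Psmb4, and for p53R172H/- against p53-/- tumors it was -0.01, -0.08 and 0.01. A further bright probe set of Psmb3 gave -0.33 for p53R172H/- and -0.10 for p53R172H/+ against p53-/- tumors, so the 2 probe sets differed in size and, for p53R172H/+, in sign. A further probe set of Psmb4 gave -0.11 and -0.09 in these comparisons, opposite in sign to the brightest. Psmb1 was almost level, at 3094 to 3544 over all tumors.

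In the 19S cap, 11 of 17 genes averaged higher in p53R172H/- than in p53-/- tumors, with a median log2 fold change of 0.04. In p53R172H/+ tumors 6 of 17 averaged higher than in p53-/- tumors, with a median of -0.01. The shares over all genes tested were 43.79% and 43.95%. Among the 6 ATPases, which unfold the substrate, the log2 fold change ranged from -0.15 (Psmc4) to 0.14 (Psmc1) for p53R172H/- against p53-/- tumors. For p53R172H/+ against p53-/- tumors it ranged from -0.11 to 0.16. A further bright probe set of Psmc4 gave 0.09 for each mutant genotype against p53-/- tumors, opposite in sign to the brightest. The ATPase gene Psmc6 had signals of 2707, 2765 and 2654 in p53R172H/- tumors and 2683, 2374 and 2256 in p53R172H/+ tumors, against 2487, 2253 and 2732 in p53-/- tumors. The p53R172H/+ tumors overlapped both other genotypes, and the log2 fold change for p53R172H/- against p53R172H/+ tumors was 0.16 ± 0.09 (adjusted p = 0.949, limma), or 0.10 without p53R172H/+ tumor 3. The base subunits Psmd1 and Psmd2, which hold the docking sites, and the ubiquitin receptor Psmd4 had log2 fold changes of 0.08, 0.08 and -0.02 for p53R172H/- against p53-/- tumors, and -0.11, -0.01 and -0.08 for p53R172H/+ against p53-/- tumors. All 3 averaged higher in p53R172H/- than in p53R172H/+ tumors, and Psmd1, at 2807, 2611 and 2657 in p53R172H/- tumors against 2547, 2345 and 2214 in p53R172H/+ tumors, did not overlap (log2 fold change 0.19 ± 0.11, adjusted p = 0.949, limma). In p53-/- tumors Psmd1 was at 2868, 2128 and 2703, a range that took in both mutant genotypes. The Psmd4 values above are from its brightest probe set. A further bright probe set of Psmd4 gave 0.04 for p53R172H/- and -0.02 for p53R172H/+ against p53-/- tumors. A dimmer one, with a mean signal of 197, gave -0.52 and -0.35. For p53R172H/- against p53R172H/+ tumors this dimmer probe set gave -0.16.

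The lid held Psmd3, which had signals of 1515, 1597 and 1591 in p53R172H/- tumors and 1539, 1622 and 1656 in p53R172H/+ tumors, against 1774, 1690 and 1693 in p53-/- tumors. It was lower in all mutant tumors, with means of 1568 ± 45.4 in p53R172H/- tumors and 1606 ± 60.0 in p53R172H/+ tumors, against 1719 ± 47.9 in p53-/- tumors (SD, n = 3 each). Its log2 fold change for both mutant genotypes together was -0.12 ± 0.06 (adjusted p = 0.371, limma). Psmd8 had signals of 2845, 3076 and 2610 in p53R172H/- tumors and 3478, 2955 and 3679 in p53R172H/+ tumors, against 2570, 2914 and 3140 in p53-/- tumors. It averaged highest in p53R172H/+ tumors, but the genotypes overlapped, with log2 fold changes of 0.23 ± 0.11 for p53R172H/+ against p53-/- tumors (adjusted p = 0.506), or 0.15 without p53-/- tumor 1, and -0.24 ± 0.11 for p53R172H/- against p53R172H/+ tumors (adjusted p = 0.949, limma). Psmd12, another lid subunit, had signals of 2128, 1831 and 2014 in p53R172H/- tumors and 2014, 1959 and 1688 in p53R172H/+ tumors, against 2089, 2009 and 2068 in p53-/- tumors. The genotypes overlapped, and the log2 fold change for p53R172H/+ against p53-/- tumors was -0.13 ± 0.09 (adjusted p = 0.611, limma), or -0.05 without p53R172H/+ tumor 3. Psmd14, the deubiquitinase of the lid, averaged 2955 ± 117 in p53R172H/- tumors and 3011 ± 375 in p53R172H/+ tumors, against 2688 ± 193 in p53-/- tumors (SD, n = 3 each), and the ranges overlapped. Psmd11 was the steadiest member, at 3860 to 4174 over the 9 tumors.

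The 3 chaperones that help to assemble the 19S base gave mixed values. Psmd5 had signals of 896, 765 and 759 in p53R172H/- tumors and 963, 1033 and 906 in p53R172H/+ tumors, against 878, 610 and 811 in p53-/- tumors. The p53R172H/+ tumors were above all others, with a log2 fold change of 0.35 ± 0.14 against p53-/- tumors (unadjusted p = 0.0335, adjusted p = 0.454, limma), which was 0.19 without p53-/- tumor 2. Psmd9 had signals of 328, 259 and 308 in p53R172H/- tumors and 307, 320 and 342 in p53R172H/+ tumors, against 341.5, 362 and 344 in p53-/- tumors. It was lower in all p53R172H/- than in all p53-/- tumors, with means of 298 ± 35.1 and 349 ± 11.3 (SD, n = 3 each) and a log2 fold change of -0.23 ± 0.11 (adjusted p = 0.337, limma), which was -0.14 without p53R172H/- tumor 2. Psmd10, known as gankyrin, overlapped between genotypes, with a log2 fold change of 0.23 ± 0.14 for p53R172H/- against p53-/- tumors.

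The alternative caps also gave opposite values. Psme1, the alpha subunit of the interferon-inducible PA28 cap, had signals of 1218, 1133 and 1217 in p53R172H/- tumors and 1400, 1140 and 1481 in p53R172H/+ tumors, against 1451, 1358 and 1656 in p53-/- tumors. All p53R172H/- tumors were below all p53-/- tumors, with a log2 fold change of -0.32 ± 0.12, or 1.25-fold lower (unadjusted p = 0.0222, adjusted p = 0.271, limma), while p53R172H/+ tumors 1 and 3 lay within the p53-/- range. The part of Psme1 that holds a match to the interferon-stimulated element motif (GAAA, any 2 bases, GAAA) is printed here because Psme1 had the smallest p of the interferon-inducible members in this comparison, and it lies just after the annotated start at chr14:55578493-55578522 (GRCm38.p6, RefSeq, plus strand), with the match, read on the minus strand, in capitals.
Psme1 ISRE site: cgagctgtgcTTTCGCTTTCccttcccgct

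Psme3, the subunit of the nuclear PA28-gamma cap, had signals of 962, 735 and 712 in p53R172H/- tumors and 739, 696 and 711 in p53R172H/+ tumors, against 664, 601 and 697 in p53-/- tumors. The p53R172H/- tumors were all above the p53-/- tumors, with a log2 fold change of 0.28 ± 0.12 (unadjusted p = 0.0457, adjusted p = 0.314, limma), but tumor 1 was far above the other 2, and without it the value was 0.15. A further measured probe set of Psme3 gave 0.28 in the same comparison. Psme4, the PA200 cap, and Psmf1, which encodes the proteasome inhibitor PI31, had log2 fold changes of -0.06 and -0.16 for p53R172H/- against p53-/- tumors, and -0.04 and -0.17 for p53R172H/+ against p53-/- tumors, and both overlapped. For Psme4, 2 further measured probe sets had the opposite sign, at 0.14 and 0.26 for p53R172H/- and 0.12 and 0.26 for p53R172H/+ against p53-/- tumors.

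**Figure D4:**
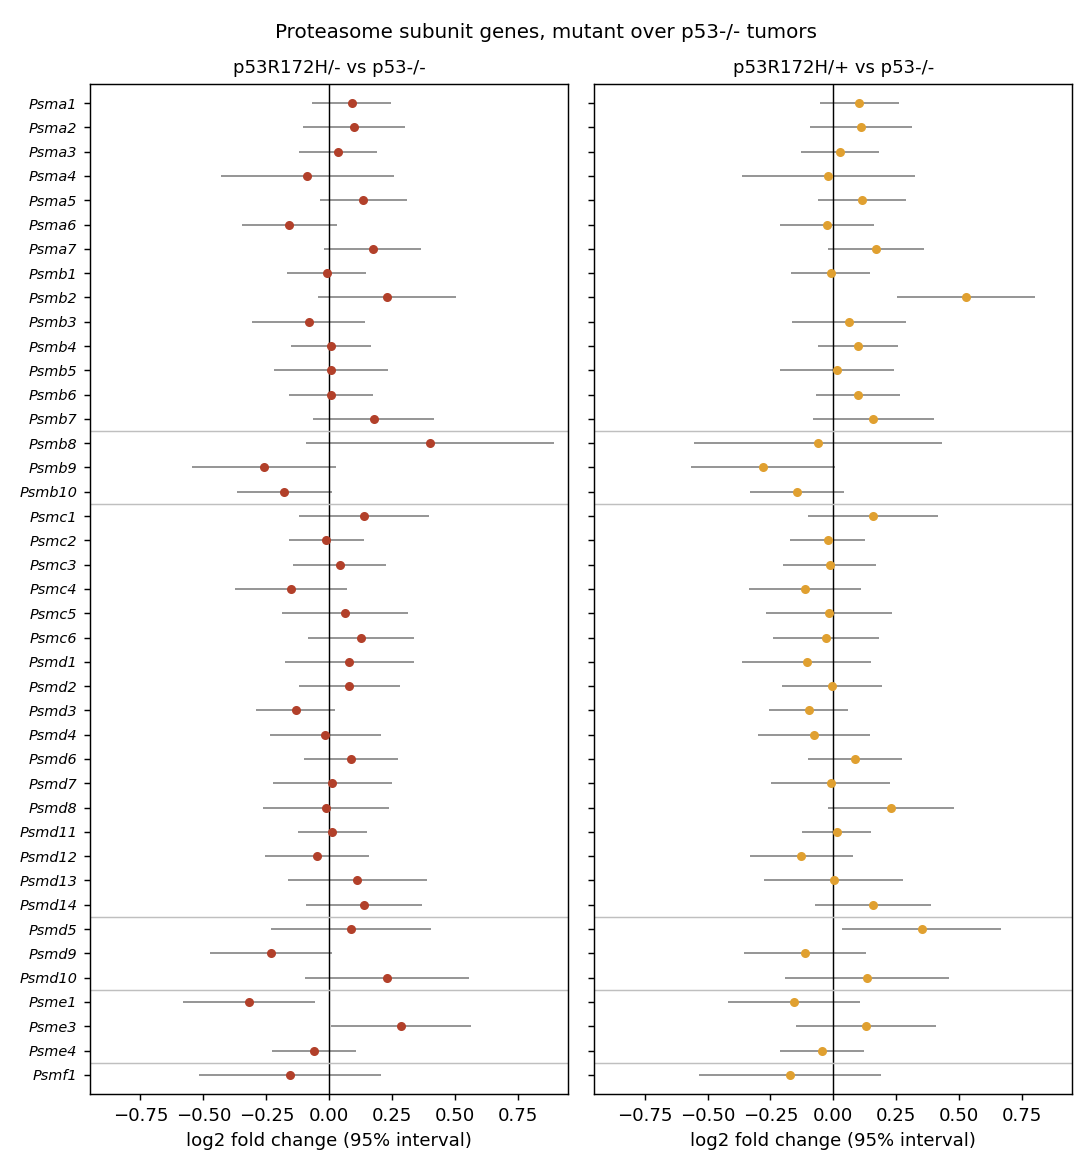
Log2 fold change with its 95% interval for each of the 41 tested proteasome genes, for p53R172H/- against p53-/- tumors (left) and p53R172H/+ against p53-/- tumors (right), with grey lines between core, immunoproteasome, 19S cap, assembly, alternative cap and PI31 genes. Most points lie near 0, with Psmb2 at 0.53 in the right panel and Psmb8 at 0.40 in the left.

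Across all members, 4 were higher and 5 lower in every p53R172H/- than in every p53-/- tumor, against 9.11% and 13.8% of all genes. The 4 were Psma5, Psma7, Psmb7 and Psme3, and the 5 were Psma6, Psmb10, Psmd3, Psmd9 and Psme1. In p53R172H/+ against p53-/- tumors the groups did not overlap for 2 higher members, Psmb2 and Psmd5, and for 3 lower members, Psmb9, Psmb10 and Psmd3, against 7.08% and 8.86% of all genes. In p53R172H/- against p53R172H/+ tumors, 1 member was higher in all, Psmd1, and 2 were lower in all, Psmb2 and Psmd5, against 5.27% and 6.62% of all genes. By class, the median log2 fold change for p53R172H/- against p53-/- tumors was 0.02 over 14 core genes, -0.18 over 3 immunoproteasome genes and 0.04 over 17 genes of the 19S cap. For p53R172H/+ against p53-/- tumors the medians were 0.10, -0.14 and -0.01, and for p53R172H/- against p53R172H/+ tumors they were -0.01, 0.02 and 0.02. These class medians were not tested.

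The core and 19S genes were steady from tumor to tumor. The SD of log2 signal over the 9 tumors had a median of 0.11 over the 31 core and 19S genes, beside 0.18 over all genes tested and 0.14 over the 1562 genes at least as bright as the dimmest of them. Within these 31 genes it ranged from 0.036 (Psmd11) to 0.267 (Psmb2). The immunoproteasome genes had SDs of 0.343 (Psmb8), 0.185 (Psmb9) and 0.0954 (Psmb10). Psmb8, Psmb2, Psmd5 and Psmf1 had the largest SDs of the 41 members.

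**Figure D5:**
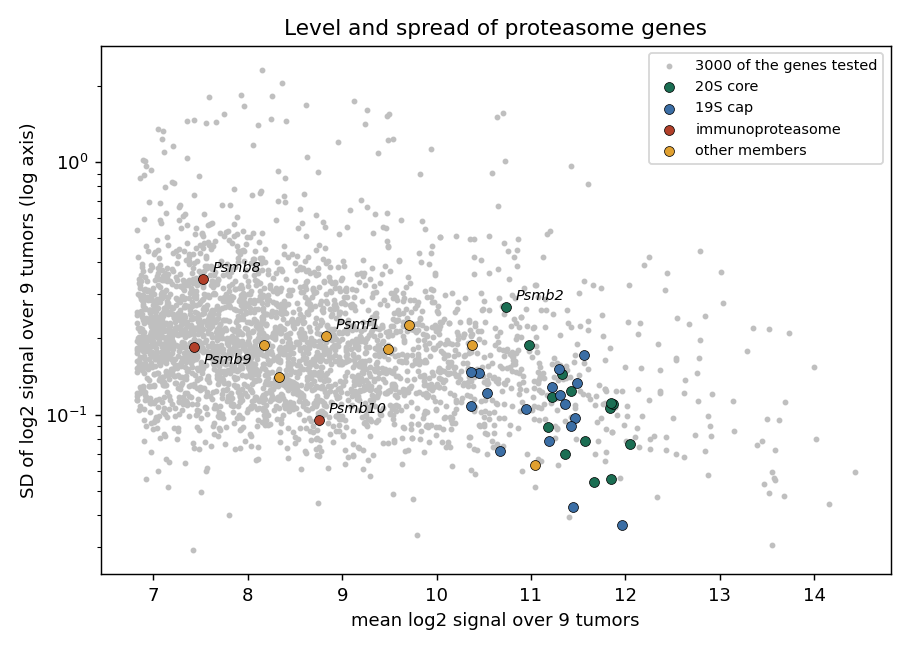
SD of log2 signal over the 9 tumors (log axis) against mean log2 signal, for the 41 tested proteasome genes by class and for 3000 of the genes tested in grey. The core and 19S genes lie low at the bright end, with a median SD of 0.11 against 0.14 for genes at least as bright, and Psmb8 and Psmb2 lie above the other members.

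Many core and 19S genes had their lowest signal in the same tumor. Of the 31 genes, 18 (58.1%) had their lowest signal in p53-/- tumor 2, with a median log2 deviation of -0.14 from the genes' own means, against 18.0% of all genes tested and 19.6% of the genes at least as bright. After quantile normalization the count was 15 of 31 (48.4%), against 16.3% of the bright genes, and with the mean of all probe sets of a gene it was 14 of 31 (45.2%); both alternatives and the comparison with bright genes were chosen after the data were seen. This tumor also had the highest array median, 123, and was the highest of the 9 tumors for 23.7% of all genes. Its ratio of 3' to 5' probe sets was 1.03 for Gapdh and 1.69 for beta-actin, the highest of the 9 arrays. The beta-actin ratio was 1.31 to 1.56 in p53R172H/- tumors and 1.36 to 1.48 in p53R172H/+ tumors, against 1.5 to 1.69 in p53-/- tumors, with overlap only between p53R172H/- and the other genotypes. In p53-/- tumor 1 the ratios were 0.991 for Gapdh and 1.67 for beta-actin. That tumor was lowest for 3 of the 31 genes. The part of RNA quality in the low core and 19S signals of p53-/- tumor 2, and in the differences between genotypes, was not tested. At the other end, p53R172H/+ tumor 1 had the highest signal for 10 of the 31 genes (32.3%), against 5.70% of all genes. Without p53-/- tumor 2, the median log2 fold change of the 41 members was -0.01 for p53R172H/- and -0.02 for p53R172H/+ against the remaining p53-/- tumors.

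The 43 members are spread over 16 chromosomes, with 8 on chromosome 11. A window from 250 bases before to 50 bases after the start was found for 37 members in RefSeq (GRCm38.p6) and searched on both strands for motifs, which are described as letters only. Members were counted per gene and the background per window, so the 2 shares differ in unit. The interferon-stimulated element motif, GAAA and GAAA with any 2 bases between them, was in the windows of 4 members, Psmb3, Psmd4, Psmd9 and Psme1 (10.8%), against 3.44% of 32851 windows. The interferon-gamma element motif TTCNNNGAA was in those of 2, Psmb8 and Psmd2 (5.41%), against 8.3%. The antioxidant element motif, TGA and GCA with any 4 bases between them, which the proteasome regulators Nfe2l1 and Nfe2l2 recognise, was in those of 5 members (13.5%), against 13.0%. CCAAT, the motif of nuclear factor Y, was in those of 14 members (37.8%), against 37.4%.

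Genes that work with the proteasome showed no called difference either, with 0 of the tested genes of each list below the adjusted p of 0.05 in any comparison (limma). At an unadjusted p under 0.05, 1 of 5 chaperones of the 20S core, Psmg4, was higher in the p53R172H/+ tumors than in the p53-/- tumors (log2 fold change 0.25, adjusted p = 0.41), against 4.75% of all genes, and it was lower in p53R172H/- than in p53R172H/+ tumors (-0.28, adjusted p = 0.948), against 2.96%. Of 11 ubiquitin receptors, shuttles and deubiquitinases, 2 passed that unadjusted p for both mutant genotypes together, against 9.09% of all genes lower. Ubqln2, a ubiquitin shuttle, and Txnl1, a thioredoxin-like protein bound to the cap, were the 2, both lower (-0.25 and -0.22, adjusted p = 0.259 and 0.265), and Txnl1 was lower in every mutant than in every p53-/- tumor. For p53R172H/+ against p53-/- tumors, 1 of the 11 was higher and 2 were lower at that unadjusted p, against 4.75% and 5.6% of all genes. For p53R172H/- against p53R172H/+ tumors, 0 were higher and 1 was lower, against 2% and 2.96%. Zfand2a, a stress-induced partner of the proteasome, was at 0.44 for p53R172H/+ against p53-/- tumors (adjusted p = 0.406), with overlapping ranges. Of 6 regulators of proteasome genes, Nfe2l1, which raises their transcription when the proteasome is inhibited, had log2 fold changes of 0.02 for p53R172H/- and -0.07 for p53R172H/+ against p53-/- tumors. Nfe2l2 was lower in p53R172H/- than in p53R172H/+ tumors (-0.31, adjusted p = 0.948). It was the 1 regulator of 6 that passed the unadjusted p there, against 2.96% of all genes lower. Of 6 genes of the p97 segregase, which extracts tagged proteins, Vcp was at -0.20 for p53R172H/+ against p53-/- tumors (adjusted p = 0.467). It was the 1 gene of these 6 that passed the unadjusted p there, against 5.6% of all genes lower. The single measured gene of 6 listed ubiquitin genes and E1 enzymes was Uba6, at 0.30 for p53R172H/- and 0.13 for p53R172H/+ against p53-/- tumors.

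Of 11 tested genes of class I antigen processing, 8 averaged higher and 3 lower in p53R172H/- than in p53-/- tumors, with a median log2 fold change of 0.11. In p53R172H/+ tumors 3 averaged higher and 8 lower than in p53-/- tumors, with a median of -0.20. Over all genes the median was -0.03 in both, and 43.79% and 43.95% averaged higher. Tap1, Tap2 and Tapbp, the transporter and its partner tapasin, were those with an unadjusted p under 0.05 for p53R172H/+ against p53-/- tumors, with log2 fold changes of -0.39, -0.52 and -0.27 (adjusted p = 0.359, 0.359 and 0.41, limma). These were 3 of 11 genes, against 5.6% of all genes lower in this comparison. For p53R172H/- against p53R172H/+ tumors, 10 of the 11 class I genes averaged higher, with a median of 0.26, against 48.03% of all genes. Tapbp and Calr, a chaperone of class I folding, had an unadjusted p under 0.05 there (0.28 and 0.38, adjusted p = 0.949 and 0.948, limma), against 2% of all genes higher. Nlrc5, the transactivator of class I genes, was at -0.56 for p53R172H/- and -0.45 for p53R172H/+ against p53-/- tumors (adjusted p = 0.358 and 0.569). Of 13 listed interferon regulators and targets, 11 had a probe set and 4 passed the filter on dim genes. All 4 averaged lower in p53R172H/- than in p53-/- tumors (median log2 fold change -0.15). In p53R172H/+ tumors 2 averaged higher and 2 lower than in p53-/- tumors (median -0.05). Over all genes, 43.79% and 43.95% averaged higher. Irf1, which acts on the promoters of immunoproteasome genes, had log2 fold changes of -0.07 for p53R172H/- and -0.12 for p53R172H/+ against p53-/- tumors. Irf8, an interferon regulatory factor of myeloid and B cells, was at -1.40 for p53R172H/- against p53-/- tumors (unadjusted p = 0.00946, adjusted p = 0.246, limma), the only one of the 4 with an unadjusted p under 0.05 there, against 9.16% of all genes lower. The leukocyte gene Ptprc stood at 0.22 for p53R172H/- and 0.38 for p53R172H/+ against p53-/- tumors. Of the 11 tested leukocyte genes, 8 averaged higher and 3 lower in p53R172H/- than in p53-/- tumors (median log2 fold change 0.07), against 43.79% of all genes higher. In p53R172H/+ tumors 6 averaged higher and 5 lower than in p53-/- tumors (median 0.13), against 43.95% of all genes higher. The part of leukocyte content in the values of the immunoproteasome and PA28 genes was not tested.

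Several members could be read on more than 1 probe set. For 16 members with several probe sets above the filter, the probe sets agreed in the sign of the difference for 8 members between p53R172H/- and p53-/- tumors, for 8 between p53R172H/+ and p53-/- tumors and for 10 between p53R172H/- and p53R172H/+ tumors. Psma7 kept its sign on both of its probe sets against p53-/- tumors, with 0.17 on each for p53R172H/- tumors, and 0.17 and 0.21 for p53R172H/+ tumors. Psmb2, Psmb9, Psmb10, Psme1, Psmd3 and Psmd5 had 1 probe set each, so their values have no such check.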

How the data were processed

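Per the labels' protocols, biotin-labelled cRNA of 9 tumors was hybridised to Affymetrix arrays. The authors deposited a linear intensity for each probe set, made with MAS5 per the submitters' processing notes, whose version and scaling the sources used here do not give. The intensity values were raised to the 20th percentile of all values (52.6), log2 was taken, and each gene was represented by its brightest probe set. Genes under the median of the non-control probe sets (113) were left out. A mean per genotype was fitted over all 9 arrays and 12167 genes with limma 3.58.1 (R 4.3.3; lmFit, eBayes with a variance trend), two-sided, with Benjamini-Hochberg adjustment over all genes and a threshold of 0.05. The fit was tested on simulated data. Tumor numbers were not treated as a pairing across genotypes in the main fit. Correlations of deviations from genotype means were -0.497 to 0.237 over 9 same-numbered pairs, and 4 exceeded 0.1. Differently numbered pairs were not compared, so these values cannot exclude a pairing. Exact permutation tests ran over all orders of the 9 tumors in Python 3.11.15, with ranks from scipy 1.17.1. Signals of different probe sets are not comparable as levels. The members, roles and 11 gene lists were chosen with earlier results of these data known. Members with values per tumor were the catalytic and PA28 genes and the 4 with the smallest p in each comparison and direction; others are named for their place in a class. Some genes are not reported here. Alternatives were other normalizations, floors, filters, probe set choices, variance models, fits of only the groups compared, a tumor-number block, the omission of each array, and of the 2 tumors with high muscle genes.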

Additional observations from a re-analysis of the deposited data

How the results depend on the processing

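No proteasome gene passed an adjusted p of 0.05 with limma under any of the 18 or 19 alternatives of each comparison; the lowest adjusted p of a member was 0.183 for p53R172H/- against p53-/- tumors, 0.112 for p53R172H/+ against p53-/- tumors, 0.528 for p53R172H/- against p53R172H/+ tumors and 0.116 for both mutant genotypes against p53-/- tumors. With the tumor number as a block the counts of called members were also 0, and the block changed no call. Of 39 named values, 34 kept their sign under every alternative run, and 11 of 718 alternatives turned a sign over the other 5. The log2 fold change of Psmc6 for p53R172H/- against p53R172H/+ tumors was -0.0079 and that of Psma5 for both mutant genotypes was -0.042 when all probe sets of a gene were averaged. Psmb8 for both mutant genotypes was -0.00493 without p53R172H/- tumors 2 and 3, the 2 tumors with its highest signals. With each tumor left out in turn, Psmb8 ranged from -0.282 to 0.0941 for p53R172H/+ against p53-/- tumors and from -0.0517 to 0.324 for both mutant genotypes, and Psmb5 from -0.0709 to 0.0839 for both. The cause of these reversals was not tested. Psmb8 gave no value under the stricter filter or with averaged probe sets. At an unadjusted p under 0.05, counts of members ranged from 0 to 2 higher and 0 to 4 lower for p53R172H/- against p53-/- tumors, 1 to 5 and 0 to 2 for p53R172H/+ against p53-/- tumors, 0 to 2 and 0 to 2 for p53R172H/- against p53R172H/+ tumors, and 1 to 5 and 0 to 5 for both. The number of arrays limits precision.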
